A study of Mus musculus with 12 samples.

Results

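The genes described here are 37 genes that mark B cells, plasma cells, T cells and natural killer (NK) cells or that are shared by lymphocytes and other white blood cells. They were measured in 12 salivary tumors of MMTV-Hras transgenic mice. Every probe set of the array whose annotation names one of these genes alone was taken, which gave 55 of the 22626 probe sets measured. The 55 probe sets read 34 of the 37 genes, and the array measured 12393 genes by such probe sets. Cd38, Lck and Il2rg have no probe set under this rule. Ighm has 11 probe sets, Coro1a has 3, another 9 genes have 2 and the other 23 have 1. A further 4 probe sets name Ighm together with other genes and were left out.

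All tumors carried an activated Hras transgene driven by the MMTV promoter, which is active in salivary and mammary epithelium. The genotypes were p53+/+ (WT1 to WT4), p53-/- (KO1 to KO4) and p53R172H/R172H (MT1 to MT4), with 4 tumors each, and R172H is a missense change in the DNA-binding domain of p53. The labels give the mice as adults without an age, so the ages of the groups were not compared here. The paper reports salivary tumors much later in p53+/+ mice than in p53-/- or p53R172H/R172H mice, and earliest in p53-/- mice. Age may therefore differ between the groups, and it cannot be told apart from genotype. Their background was a mix of Balb/c and C57BL/6. By the paper's methods the MT mice came from another colony, begun by mating C57BL/6 p53R172H/+ mice to mice of the mixed background. The MT genotype and its colony therefore cannot be told apart. The p53 alleles were carried in the germline, so immune cells and stroma had the genotype of the tumor. RNA came from frozen sections of whole tumor tissue, so a level can fall through fewer cells of a type or through less RNA per cell, and these cannot be told apart. The sections were checked under the microscope by the study for largely uniform tumor. The labels do not say whether the tumors of a genotype came from separate mice, and p-values measure the spread between these samples. A level is a log2 value from Affymetrix arrays (1 array per tumor), made by robust multi-array averaging (RMA), and a difference of 1 is a doubling. Levels of different probe sets cannot be compared with each other.

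B cells carry an antigen receptor built from immunoglobulin chains and the signaling pair Cd79a and Cd79b, and plasma cells secrete immunoglobulin, joined into polymers by the J chain. T cells carry an antigen receptor that signals through the CD3 chains, the kinases Lck and Zap70 and the adaptor Lat, with Cd4 or Cd8 as coreceptor. Cytotoxic T cells and NK cells kill with granules that hold perforin and granzymes. In tissue outside lymphoid organs these cells are scattered, while lymph nodes and other lymphoid tissue hold them densely together with stroma that makes chemokines such as Cxcl13.

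Start site windows were available for 26 of the 37 genes, as 32 windows of 250 bases before to 50 after the start, taken from RefSeq (GRCm38.p6). Of 8 short words searched on both strands, AGGAAGT, the core read by Ets factors such as Spib, was in 9 of the 32 windows (9.35% of all 32851 windows), and CAGGTG, an E-box read by E proteins, was in 17 (20.2%). TGTGGT, a core of Runx factors, was in 11 (16.8%). ATGCAAAT, the octamer bound by the partners of Pou2af1, was in none (1.74%), nor was its shorter form ATGCAAA (4.63%). GAGGAAGT, which contains AGGAAGT, was in 2 (3.2%), GGGAAAC in 4 (5.78%) and TATAAA in 2 (13.6%). A match is a description of the letters and not a bound site. The windows of Jchain and Cd79a are shown because these genes belong to the class that stood out most in 1 tumor, and those of Cd3d and Cd3e because these neighbors on chromosome 9 differed in how far they stood out. They lie at chr5:88527848-88528147 (- strand), chr7:24897247-24897546 (+ strand), chr9:44981536-44981835 (+ strand) and chr9:45009562-45009861 (- strand). Capitals mark CAGGTG and AGGAAGT or their reverse complements, and each sequence runs 5′ to 3′ on the strand of the gene.
Jchain: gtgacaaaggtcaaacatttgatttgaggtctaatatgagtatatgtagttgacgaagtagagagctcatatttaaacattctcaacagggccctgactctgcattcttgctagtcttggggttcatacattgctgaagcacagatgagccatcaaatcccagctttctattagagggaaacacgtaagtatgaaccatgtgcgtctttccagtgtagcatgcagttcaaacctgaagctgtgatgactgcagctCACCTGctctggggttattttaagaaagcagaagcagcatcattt
Cd79a: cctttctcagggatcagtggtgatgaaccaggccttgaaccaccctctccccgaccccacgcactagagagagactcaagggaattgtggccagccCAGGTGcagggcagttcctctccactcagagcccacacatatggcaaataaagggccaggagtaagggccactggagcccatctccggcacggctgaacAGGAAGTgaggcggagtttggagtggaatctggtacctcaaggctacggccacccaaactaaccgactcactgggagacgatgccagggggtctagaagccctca
Cd3d: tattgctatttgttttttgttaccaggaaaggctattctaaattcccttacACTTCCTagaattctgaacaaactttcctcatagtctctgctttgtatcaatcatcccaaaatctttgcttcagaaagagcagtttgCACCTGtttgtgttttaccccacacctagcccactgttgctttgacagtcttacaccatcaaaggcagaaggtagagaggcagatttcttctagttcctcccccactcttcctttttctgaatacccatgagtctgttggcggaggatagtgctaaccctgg
Cd3e: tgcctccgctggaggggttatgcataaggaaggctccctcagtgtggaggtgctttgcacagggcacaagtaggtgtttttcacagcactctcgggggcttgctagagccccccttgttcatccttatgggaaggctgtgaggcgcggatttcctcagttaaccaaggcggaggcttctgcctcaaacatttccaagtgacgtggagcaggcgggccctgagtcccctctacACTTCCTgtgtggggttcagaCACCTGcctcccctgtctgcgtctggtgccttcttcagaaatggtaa

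The WT group does not behave as 4 like tumors for these genes. WT1 had the highest level of the 12 tumors at 49 of the 55 probe sets, against 10.7% of all probe sets. In 33 of the 55, WT1 was above each of the other 11 tumors by more than 1 on the log2 scale, against 215 or 0.950% of all probe sets, so that these 33 are 15.3% of the 215. The smallest excess counted was 1.01 and the largest not counted was 0.97. No other tumor was above the rest by more than 1 at any of the 55, but at the 49 where WT1 was highest none could be. Relative to the mean of the other 11 tumors, the mean level of the 55 probe sets was 2.33 in WT1, 0.27 in WT2, 0.13 in WT3 and 0.06 in WT4. It was -0.13, 0.01, -0.09 and -0.13 in KO1 to KO4 and -0.02, 0.05, -0.06 and -0.10 in MT1 to MT4. WT1 was no outlier by its median level over all probe sets (6.89, against 6.85 to 6.97 in the others), and its 18S ribosomal RNA probe sets (9.11) lay between those of WT2 (8.90) and WT3 (9.33). Each comparison below is therefore given with and without WT1.

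**Figure D1:**
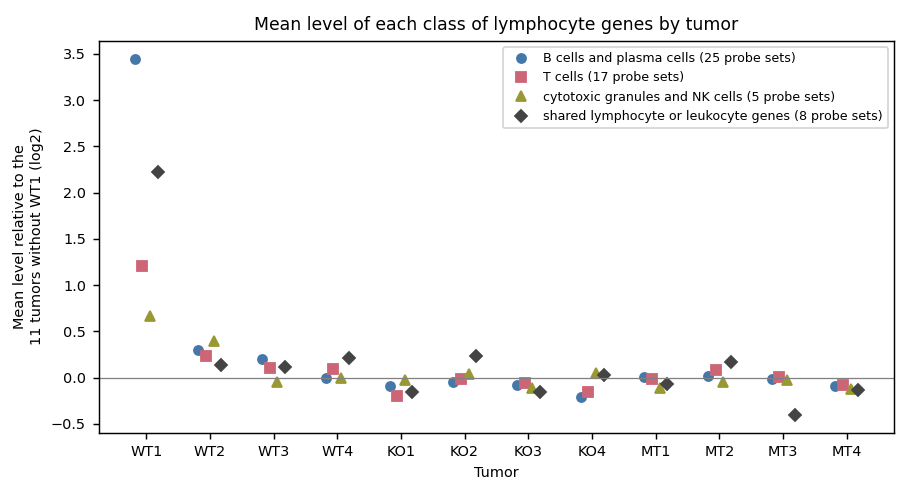
Mean level (log2) of the probe sets of each class relative to their mean in the 11 tumors without WT1, by tumor. WT1 is highest for each class, at 3.45 for the 25 probe sets of B and plasma cells, 2.22 for the 8 of shared genes, 1.21 for the 17 of T cells and 0.67 for the 5 of cytotoxic granules. The other tumors lie between -0.40 and 0.40, and WT2 is at 0.40 for cytotoxic granules.

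The genes of B cells and plasma cells stood out most. Of their 25 probe sets, 24 were highest in WT1 and 19 were above every other tumor by more than 1. Ighm, the heavy chain of IgM, had levels of 12.85 in WT1, 8.93, 8.61 and 8.88 in WT2 to WT4, 8.50, 9.11, 8.94 and 8.66 in KO1 to KO4 and 8.76, 9.11, 9.08 and 8.74 in MT1 to MT4 (the probe set with the highest mean). The other tumors lay within a narrow band for this probe set and the genotypes overlapped in it. The largest excess of any member was at another Ighm probe set, 1425385_a_at, with 12.15 in WT1 and 5.51 to 6.05 elsewhere, a 68.9-fold gap to the next tumor. Of the 11 Ighm probe sets, 8 were above the other tumors by 3.2 to 6.11, while 1427869_at and 1451949_at exceeded them by 0.33 and 0.18 and 1426196_at was highest in WT2 (5.82, against 5.40 in WT1). Immunoglobulin transcripts share sequence, and several of these probe sets are named by the maker as not specific, so which heavy chain they read is uncertain.

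Jchain, which links IgM and IgA units, had 12.37 in WT1, 5.71, 6.48 and 5.80 in WT2 to WT4, 6.05, 5.87, 5.72 and 5.80 in KO1 to KO4 and 5.76, 5.69, 5.46 and 5.46 in MT1 to MT4. WT1 was 59.2-fold above the next tumor, WT3. Ms4a1, the B cell surface protein CD20, had 9.84 in WT1, 4.51, 4.52 and 4.85 in WT2 to WT4, 4.84, 4.98, 4.57 and 4.98 in KO1 to KO4 and 5.16, 5.32, 5.04 and 4.75 in MT1 to MT4. WT2 and WT3 were the lowest of the 12 tumors at this Ms4a1 probe set, so the WT group held both ends of its range there. At the second Ms4a1 probe set, 1450912_at, WT1 was at 8.12 and KO4 was the lowest tumor (3.35). Cd79a had 8.86 in WT1, 5.33, 4.99 and 5.10 in WT2 to WT4, 4.80, 5.20, 5.23 and 4.96 in KO1 to KO4 and 5.02, 5.10, 5.27 and 4.76 in MT1 to MT4. Its partner Cd79b had 9.17 in WT1, 5.55, 4.72 and 4.62 in WT2 to WT4, 4.76, 4.83, 4.80 and 4.25 in KO1 to KO4 and 4.80, 4.83, 4.86 and 4.93 in MT1 to MT4. Both receptor chains thus stood apart in WT1 by 3.53 and 3.61, and WT2 was next for both.

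Among the remaining B cell genes, Pou2af1, the coactivator of octamer factors, had 8.35 in WT1 and 3.47 to 4.13 in the others. Spib, an Ets factor of B cells, had 7.43 against 4.66 to 5.36. Cd22, an inhibitory receptor, had 8.61 against 6.04 to 6.90. Cr2, the complement receptor of mature B cells and follicular dendritic cells, had 6.37 against 4.38 to 4.80. These 4 genes moved as the receptor chains did, with excesses of 1.57 to 4.22. The 2 probe sets of Fcer2a, the low-affinity IgE receptor, were above the others by 1.23 and 0.21. For the kinase Blk the excess was 0.32, and for Tnfrsf17, the plasma cell receptor BCMA, it was 0.11, so the gap was small for these although WT1 was still the highest tumor.

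**Figure D2:**
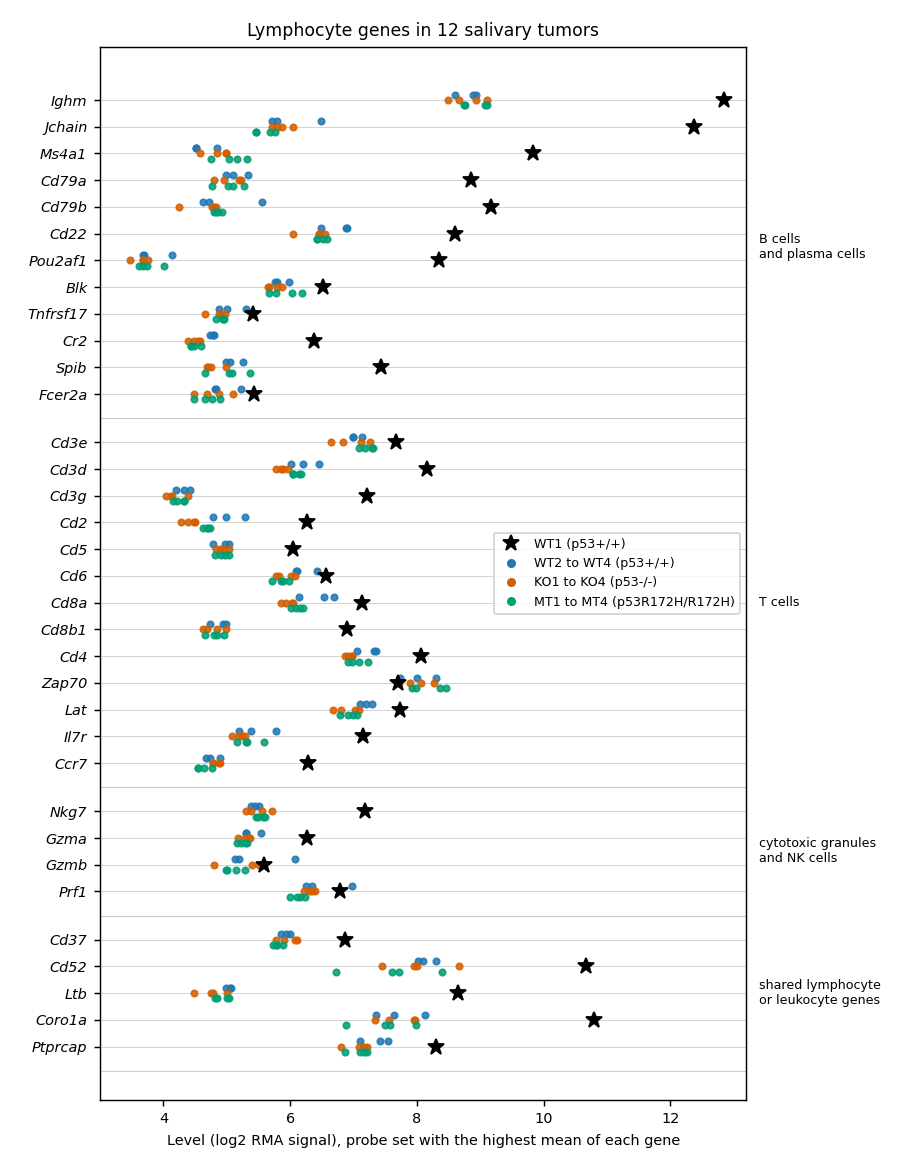
Level (log2 RMA signal) of the 34 measured genes in each of the 12 tumors, for the probe set with the highest mean of each gene. The star is WT1 and the circles are the other tumors by genotype. The star lies to the right of all circles for 31 of the 34 genes, farthest for Jchain and other B cell genes, and Zap70, Gzmb and Prf1 are the exceptions.

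The T cell genes stood apart in WT1 by less. Of their 17 probe sets, 15 were highest in WT1 and 8 exceeded the other tumors by more than 1. Cd3g, a chain of the T cell receptor complex, had 7.22 in WT1, 4.42, 4.20 and 4.33 in WT2 to WT4, 4.12, 4.38, 4.04 and 4.14 in KO1 to KO4 and 4.32, 4.15, 4.21 and 4.33 in MT1 to MT4. Cd3d, a second chain, had 8.16 in WT1, 6.46, 6.21 and 6.01 in WT2 to WT4, 5.85, 5.96, 5.77 and 5.89 in KO1 to KO4 and 6.04, 6.14, 6.17 and 6.04 in MT1 to MT4. The neighboring gene Cd3e had 7.67 in WT1, 7.0, 7.0 and 7.14 in WT2 to WT4, 6.64, 7.26, 7.12 and 6.83 in KO1 to KO4 and 7.18, 7.29, 7.31 and 7.08 in MT1 to MT4. The excess was 2.81, 1.70 and 0.36 for these 3 chains of 1 complex.

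Cd8a, the alpha chain of the cytotoxic T cell coreceptor, had 7.13 in WT1, 6.70, 6.54 and 6.14 in WT2 to WT4, 6.03, 5.86, 6.04 and 5.94 in KO1 to KO4 and 6.20, 6.15, 6.09 and 6.02 in MT1 to MT4 at its brighter probe set. Its partner Cd8b1 had 6.90 in WT1 and 4.63 to 4.99 in the others. Cd4, the coreceptor of helper T cells, had 8.07 in WT1, 7.36, 7.33 and 7.06 in WT2 to WT4, 6.86, 6.98, 6.98 and 6.91 in KO1 to KO4 and 7.08, 7.23, 6.97 and 6.92 in MT1 to MT4 at probe set 1419696_at. At its second probe set, 1427779_a_at, it had 7.21 in WT1, 7.75, 7.29 and 7.07 in WT2 to WT4, 6.57, 6.61, 6.77 and 6.67 in KO1 to KO4 and 6.66, 6.98, 6.78 and 6.65 in MT1 to MT4. The 2 Cd4 probe sets thus differ in which WT tumor is highest, WT1 at the first and WT2 at the second, and at both all 4 WT tumors lie above all 4 KO tumors. Cd2, an adhesion receptor of T and NK cells, had 6.26 in WT1, 5.29, 4.99 and 4.79 in WT2 to WT4, 4.27, 4.48, 4.38 and 4.50 in KO1 to KO4 and 4.71, 4.68, 4.73 and 4.63 in MT1 to MT4. Every WT tumor was above every KO and MT tumor for Cd2.

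Ccr7, the receptor that guides lymphocytes into lymph nodes, had 6.28 in WT1, 4.90, 4.74 and 4.67 in WT2 to WT4, 4.79, 4.87, 4.89 and 4.78 in KO1 to KO4 and 4.64, 4.55, 4.54 and 4.77 in MT1 to MT4. Il7r, a survival receptor of resting T cells, had 7.15 in WT1 and 5.09 to 5.77 in the others. Cd5, a brake on receptor signaling, had 6.04 against 4.79 to 5.04. The excess was between 1.01 and 1.38 for these 3 genes. For Cd6 and Lat it was 0.15 and 0.43. Zap70 was not highest in WT1 at its brighter probe set (7.71, against 7.72 to 8.46), and exceeded the other tumors by 0.41 at the dimmer one.

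Genes of cytotoxic granules stood apart least. Nkg7, a granule membrane protein, had 7.18 in WT1, 5.44, 5.38 and 5.51 in WT2 to WT4, 5.39, 5.71, 5.31 and 5.56 in KO1 to KO4 and 5.57, 5.61, 5.50 and 5.46 in MT1 to MT4. Gzma, granzyme A, had 6.27 in WT1, 5.54, 5.31 and 5.31 in WT2 to WT4, 5.29, 5.17, 5.35 and 5.37 in KO1 to KO4 and 5.32, 5.29, 5.16 and 5.22 in MT1 to MT4. For these 2 genes WT1 lay above a band in which the genotypes overlapped. Gzmb, granzyme B, had 5.59 in WT1, 6.08, 5.13 and 5.19 in WT2 to WT4, 5.59, 5.40, 4.80 and 5.51 in KO1 to KO4 and 4.98, 5.14, 5.28 and 5.0 in MT1 to MT4. Prf1, perforin, had 6.78 in WT1, 6.97, 6.34 and 6.25 in WT2 to WT4, 6.22, 6.35, 6.40 and 6.32 in KO1 to KO4 and 6.11, 6.0, 6.23 and 6.15 in MT1 to MT4 at its brighter probe set. WT2 and not WT1 was the highest tumor for Gzmb and for both probe sets of Prf1.

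Among the genes shared by lymphocytes and other white blood cells, Ltb, a lymphotoxin chain that organizes lymphoid tissue, had 8.65 in WT1, 5.05, 4.98 and 5.07 in WT2 to WT4, 4.75, 5.0, 4.78 and 4.49 in KO1 to KO4 and 5.0, 5.03, 4.84 and 4.81 in MT1 to MT4. Coro1a, an actin regulator of leukocytes, had 10.79 in WT1, 7.36, 7.64 and 8.13 in WT2 to WT4, 7.56, 7.97, 7.34 and 7.96 in KO1 to KO4 and 7.49, 7.98, 6.88 and 7.57 in MT1 to MT4. Cd52, a surface glycoprotein of lymphocytes and monocytes, had 10.67 in WT1, 8.02, 8.10 and 8.30 in WT2 to WT4, 8.01, 8.67, 7.45 and 7.95 in KO1 to KO4 and 7.72, 8.40, 6.72 and 7.61 in MT1 to MT4. MT3 was the lowest tumor for both Coro1a and Cd52 at these probe sets. Ptprcap, which binds the leukocyte phosphatase CD45, had 8.31 in WT1, 7.54, 7.42 and 7.11 in WT2 to WT4, 6.80, 7.22, 7.17 and 7.08 in KO1 to KO4 and 7.11, 7.22, 7.17 and 6.86 in MT1 to MT4. The 2 probe sets of Cd37, a tetraspanin of mature B cells, were above the other tumors by 1.41 and 0.76.

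Across genotypes, few probe sets of these genes passed the test. Of the 55, 1 was called between WT and KO tumors by limma at an adjusted p under 0.05, where 4.57% of all probe sets were called. It was Cd4 at 1427779_a_at, where the WT tumors exceeded the KO tumors by 0.68 (SE 0.14, adjusted p = 0.0282). The brighter Cd4 probe set differed by 0.52 (SE 0.18, adjusted p = 0.11). The largest differences did not pass: Ighm at 1425324_x_at by 2.26 (SE 1.04, adjusted p = 0.211), Jchain by 1.73 (SE 1.17, adjusted p = 0.394) and Cd79b by 1.36 (SE 0.79, adjusted p = 0.321). The difference of WT minus KO was above 0 at 54 of the 55, against 52.6% of all probe sets. The median difference of WT minus KO over the 55 was 0.68, against 0.019 over all probe sets and 0.066 over the dim ones. By class it was 1.01 for B and plasma cells, 0.76 for the shared genes, 0.52 for T cells and 0.26 for cytotoxic granules. At an unadjusted p under 0.05 there were 17 of the 55, against 23.9% of all probe sets.

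Without WT1 the median difference fell to 0.21, against 0.021 over all probe sets and 0.076 over the dim ones. It was 0.24 for B and plasma cells, 0.25 for T cells, 0.15 for cytotoxic granules and 0.10 for the shared genes, so the order of the classes by size was lost with that tumor. Differences were above 0 at 50 of the 55, against 52.9% of all probe sets. Of the 55, 1 was called (1.19% of all probe sets), and it was Cd2, higher by 0.62 (SE 0.13, adjusted p = 0.0495) and not Cd4, which differed by 0.72 (SE 0.16, adjusted p = 0.0586). An unadjusted p under 0.05 was reached by 17 of the 55 (20.1% of all probe sets). Jchain, Cd79a and Ms4a1 then differed by 0.14 (SE 0.18, adjusted p = 0.722), 0.09 (SE 0.16, adjusted p = 0.785) and -0.22 (SE 0.16, adjusted p = 0.5), and Coro1a by 0.00 (SE 0.27, adjusted p = 0.998). For these genes the difference with all 4 WT tumors rests on WT1. Ighm at 1425324_x_at still differed by 0.85 (SE 0.21, limma, adjusted p = 0.0725), the largest difference of the 55. Cd79b differed by 0.30 (SE 0.22, limma, adjusted p = 0.483). The WT2 to WT4 levels all lay above the KO levels at 14 of the 55, against 10.1% of all probe sets, and a KO tumor was the lowest of the 12 at 36 of the 55, against 41.0% of all.

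**Figure D3:**
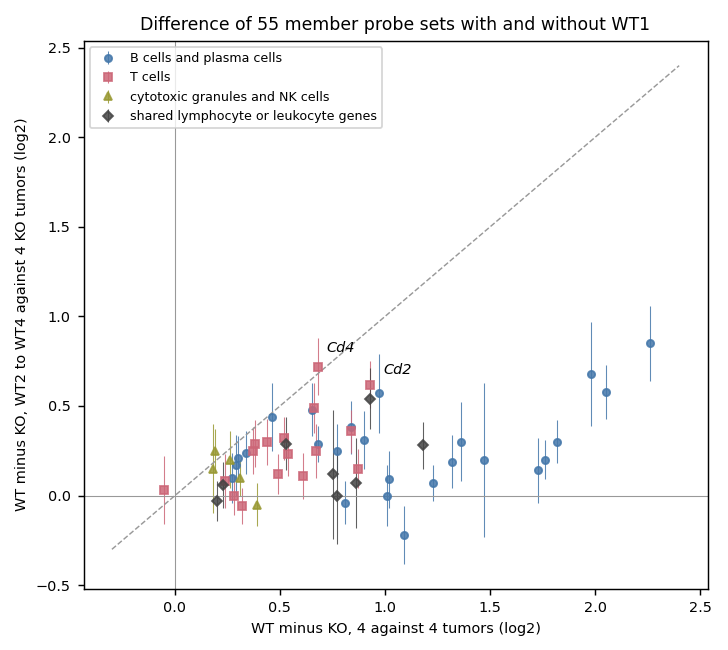
Difference WT minus KO (log2) of the 55 probe sets with 4 WT tumors (x axis) and with WT2 to WT4 (y axis), with the SE of the latter as bars. The dashed line marks equal differences, most B cell probe sets fall far below it, and the Cd4 probe set 1427779_a_at (0.68 and 0.72) lies just above it.

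Other properties of the tumors differed as well, and their part in what remained after WT1 was left out was not tested. The 18S ribosomal RNA probe sets, a sign of RNA composition, were at 8.90 to 9.33 in WT1 to WT3, 7.51 in WT4, 7.36 to 8.03 in the KO tumors and 6.41 to 7.66 in the MT tumors. With WT4 left out instead, WT1 stayed in the fit, and 7 of the 55 were called between WT and KO tumors, against 6.01% of all probe sets. They were Cd2, Cd4, Cd8a, Fcer2a and 3 probe sets of Ighm (1426196_at, 1427869_at and 1451949_at). These 3 are the Ighm probe sets that did not stand apart in WT1. Only 11 of the 55 were bright, meaning higher than the overall median value on 4 or more arrays, so most of these small differences lie at low signal. Markers of other cell types differed too. For macrophages, over the 15 measured, the median difference of WT minus KO was 0.57 with WT1 and 0.60 without it, and 2 were called higher with WT1, Cd68 by 0.91 and Lyz2 by 1.38 (limma, adjusted p = 0.0483 and 0.0357), and none without it. Over the 11 markers of salivary acini and ducts the median difference was 1.22 with WT1 and 0.99 without it, and 2 were called in each fit. Over the 10 endothelial markers it was 0.29 and 0.30, with Pecam1, Emcn and Vwf called higher with WT1 and none without it.

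**Figure D4:**
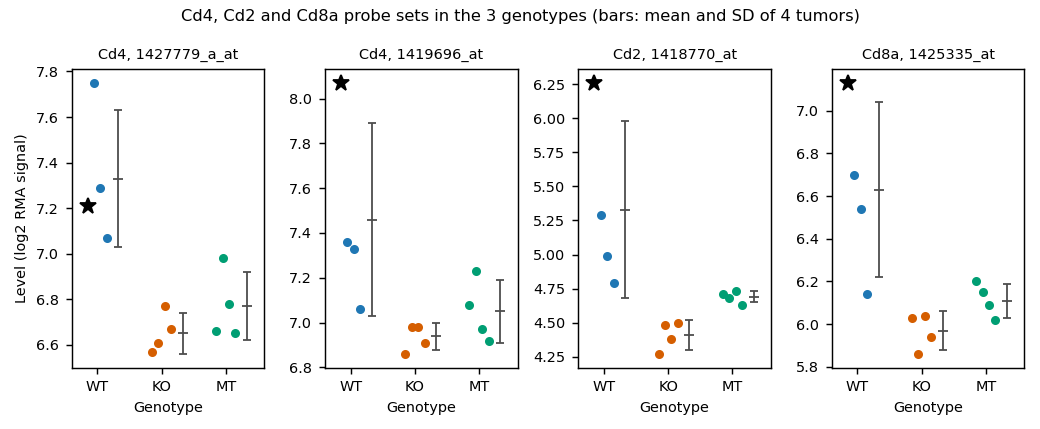
Levels (log2 RMA signal) of both Cd4 probe sets, Cd2 and the brighter Cd8a probe set in the tumors of each genotype, with the mean and SD of 4 tumors. The star is WT1; it lies highest at 3 of the 4 probe sets and below WT2 and WT3 at Cd4 1427779_a_at, and the KO tumors are the lowest group at each.

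No probe set of these genes was called between tumors with mutant p53 and KO tumors. Of the 55, 0 were called by limma with WT1 in the fit and 0 without it, where 2 or 0.00884% of all probe sets were called in each fit. At an unadjusted p under 0.05 there were 0 with WT1 (9.58% of all probe sets) and 1, Cd2, without it (9.21%). The median difference of MT minus KO was 0.09 (0.017 over all probe sets), with a range of -0.43 to 0.31 over the 55. Jchain differed by -0.27 (SE 1.17, adjusted p = 0.973), Cd3d by 0.23 (SE 0.37, adjusted p = 0.903) and Coro1a by -0.22 (SE 0.61, adjusted p = 0.953). Without WT1, which is in neither group but enters the spread of the fit, the differences were -0.27 (SE 0.17, adjusted p = 0.686), 0.23 (SE 0.11, adjusted p = 0.571) and -0.22 (SE 0.25, adjusted p = 0.843). The spiked poly-A controls were at 10.38 to 10.56 in MT1 to MT3 and at 3.98 to 4.23 in the other 9 tumors. With this level as a block the median difference was -0.02. That value compares MT4 alone with the KO tumors, since the block takes up MT1 to MT3. These values do not show that the 2 groups are alike.

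Between MT and WT tumors 0 of the 55 were called (0.367% of all probe sets), and 0 without WT1 (0.0177%). The median difference of MT minus WT was -0.59 with WT1 and -0.15 without it, against -0.009 and -0.01 over all probe sets. At an unadjusted p under 0.05 there were 13 of the 55 (19.4% of all probe sets) and 11 without WT1 (14.4%). The Cd4 probe set 1427779_a_at differed by -0.56 (SE 0.14, adjusted p = 0.0938) and by -0.60 (SE 0.16, adjusted p = 0.193) without WT1. Levels in WT2 to WT4 were all above those in the MT tumors at 7 of the 55 (7.96% of all probe sets), of Cd2, Cd4, Cd6, Cr2, Ighm, Lat and Prf1. The F test over the 3 genotypes called 0 of the 55 (2.34% of all probe sets) and 0 without WT1 (0.106%), with a smallest adjusted p of 0.0519 and 0.109. At an unadjusted p under 0.05 it gave 12 (22.3%) and 10 (17.2%). The comparisons of WT with KO and of WT with MT share the WT tumors.

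How the genes vary together also rests on WT1. Over the 12 tumors the median pairwise Pearson correlation of the 34 genes was 0.83, and 0.93 among the 12 B and plasma cell genes. Over the 11 tumors without WT1 it was 0.28 (quartiles 0.03 and 0.50) and 0.32. The points are arrays that share their normalization, and without WT1 most of the genes vary little. Outside all lists used here, the genes most like the mean of the 55 probe sets over the 12 tumors were Trbv1 (r = 0.995), Igkv8-30, Ptpn22, Trav9d-3, Igkv6-14, Ighv14-2, Marco, Cd209b and 2 more Igkv segments (the lowest at 0.990). These are mostly gene segments of immunoglobulin and T cell receptor chains, with the phosphatase Ptpn22 and the macrophage receptors Marco and Cd209b, which reached 8.02 and 10.27 in WT1 and at most 5.46 and 5.23 in the other tumors. Over the 11 tumors without WT1 the list was another one: Itpr2 (r = 0.964), Cfap410, Serpinb8, Pdxk, Pcare, Sdc3, Grk1, Slc37a2, Gabra2 and Etv3 (0.949), and WT1 lay within the range of the other tumors for all 10.

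Wider lists of genes show which immune genes moved with the members in WT1. Genes of these lists are named as examples after their values were seen. Levels of a list are given as its mean relative to the 11 other tumors, and the lists hold some of the members. Lists of immunoglobulin genes (8 measured) and of MHC class II genes (9), which B cells, dendritic cells and macrophages use to present antigen, were at 1.92 and 2.03 in WT1 and at most 0.28 and 0.67 elsewhere. The light chain segment Iglv1 was at 10.22 in WT1 and 4.40 to 5.34 in the other 11 tumors, and Cd74, the invariant chain of class II, at 11.40 in WT1 and 6.99 to 10.35 in the other 11 tumors. Pan-leukocyte genes (26) were at 1.59, with Ptprc, which encodes CD45, at 10.49 in WT1 and 6.23 to 7.99 in the other 11 tumors. Of 14 measured B cell markers 12 were highest in WT1, but 9 of the 14 are members. Only members among them exceeded the other tumors by more than 1. Pax5, the B cell identity factor, was not highest in WT1 (5.24 in WT1 and 4.98 to 5.89 in the other 11 tumors). Of 10 plasma cell markers 5 were highest in WT1, and only Jchain, Ighm and Igha exceeded the other tumors by more than 1. Xbp1 and Prdm1, factors of plasma cell differentiation, and Sdc1, a plasma cell and epithelial surface protein, were not highest in WT1, and Sdc1 was at 8.10 in WT1 and 7.81 to 9.59 in the other 11 tumors. Of 15 T cell markers 14 were highest in WT1, but 11 of the 15 are members, and only members exceeded the other tumors by more than 1. Of 14 NK and cytotoxic markers, 4 of them members, 9 were highest in WT1. The NK receptor Klrd1 was at 6.60 in WT1 and 4.06 to 4.42 in the other 11 tumors. Ncr1, which is specific to NK cells, was at 5.22 in WT1 and 4.88 to 5.29 in the other 11 tumors.

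Some lists of lymphoid tissue moved only in a few genes. In the list of lymphoid stroma, follicular and high endothelial genes 3 of 15 exceeded the other tumors by more than 1: the member Cr2, Cxcl13, the chemokine of B cell follicles, and Glycam1, a ligand for lymphocyte homing made by the high endothelial venules of lymph nodes. Cxcl13 was at 9.91 in WT1 and 4.20 to 4.82 in the others at 1 probe set, and at 8.13 against 6.05 to 6.60 at the other, and Glycam1 at 8.47 in WT1 and 4.96 to 5.31 in the other 11 tumors. Naive and recirculating lymphocyte genes (12) were at 0.86 in WT1 and at most 0.10 elsewhere. Germinal center genes (9) were at 0.33, with Cxcr5, the receptor for Cxcl13, at 6.02 in WT1 and 4.21 to 4.78 in the other 11 tumors and Bcl6 lowest in WT1 (7.30, against 7.47 to 8.82). T cell regulators and checkpoint genes (16) were at 0.03 in WT1, within the range of the other tumors, with Foxp3 at 4.30 in WT1 and 4.12 to 4.38 in the other 11 tumors and Pdcd1 at 5.11 in WT1 and 4.70 to 5.10 in the other 11 tumors. Immature thymocyte genes (11) were at 0.33, and Rag1 was at 3.81 in WT1 and 3.73 to 4.15 in the other 11 tumors. The part of lymphoid tissue in the sections of WT1 was not tested.

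The remaining signaling lists moved in part. B cell receptor signaling genes (18) were at 0.97 in WT1, T cell receptor signaling genes (23) at 0.95, lymphotoxin and TNF family genes (13) at 0.80, B cell transcription factors (14) at 0.75, NK receptors and cytotoxic granule genes (27) at 0.44 and shared gamma chain cytokine receptors (11) at 0.30, and the other 11 tumors were at most at 0.25 in each. Other cell types also stood apart in WT1. Granulocyte markers (9) were at 1.03 in WT1 and -0.78 to 0.50 elsewhere, with S100a9 at 10.10 in WT1 and 5.53 to 7.50 in the other 11 tumors. Epithelial markers (10) were at -0.94 in WT1 and -0.51 to 0.23 elsewhere, 7 of the 10 were lowest in WT1, and Krt18 was at 10.68 in WT1 and 11.89 to 13.0 in the other 11 tumors. Set beside the label of salivary tumor, the epithelial genes Epcam, Krt8 and Krt18 were well above the median of the array in every tumor, while Krt14 was not (5.94 in WT1 and 5.67 to 6.25 in the other 11 tumors). Macrophage markers (15) were at 0.08 in WT1 and -0.61 to 0.52 elsewhere. Markers of salivary acini and ducts (11) were at 1.32, within the -1.03 to 1.46 of the other tumors. Markers of dendritic cells (11) were at 0.35 and of red blood cells (3) at 0.48, against at most 0.19 and 0.33 elsewhere. Markers of fibroblasts (9) at 0.78, endothelium (10) at 0.32 and adipocytes (6) at 0.10 lay within the range of the other tumors. The part of these cell types in the levels of the lymphocyte genes was not tested.

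**Figure D5:**
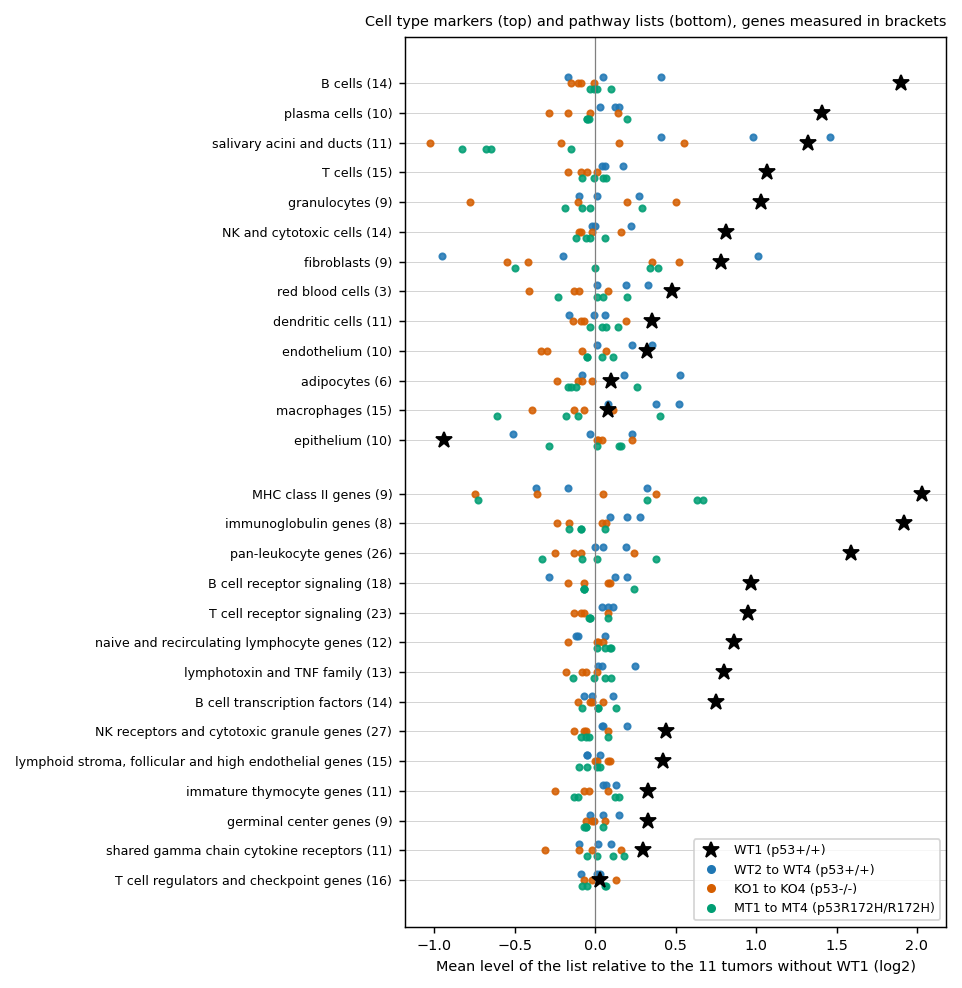
Mean level (log2) of each list of cell type markers and of pathway genes relative to its mean in the 11 tumors without WT1, by tumor, with the number of genes measured in brackets. The star (WT1) lies to the right of all circles for the lists of lymphocytes and leukocytes, to the left of all for epithelium (-0.94), and among the circles for macrophages (0.08) and for T cell regulators and checkpoint genes (0.03).

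Between genotypes the same lists gave few calls, where 4.57% of all probe sets were called between WT and KO tumors with WT1 and 1.19% without it. Of the 13 lists of cell type markers and 14 pathway lists, no gene of the marker lists of B cells, plasma cells or NK and cytotoxic cells was called between WT and KO tumors with or without WT1, 0 and 1 of the 15 T cell markers (Cd2) were called with and without it, and 1 of the 9 germinal center genes, Cd40, a receptor for T cell help, was called with it (0.44, limma, adjusted p = 0.0448). Of the T cell receptor signaling genes Sit1, an adaptor that dampens signaling, was called with WT above KO tumors by 0.57 (limma, adjusted p = 0.0376), and of the NK receptors Klra7 by 0.61 (adjusted p = 0.0395), and neither was called without WT1. Cd48, an adhesion protein of leukocytes, and H2-Ea, a class II chain, were called in both fits, by 1.49 and 0.66 with WT1 and by 1.02 and 0.77 without it. Cd70, a TNF family ligand, was called higher in WT by 0.56 (limma, adjusted p = 0.0333), and Cyba, a subunit of the phagocyte oxidase, was the one list gene called lower in WT, by -1.38 (limma, adjusted p = 0.0351), and neither was called without WT1. The largest calls in the lists were of salivary acini and ducts, Prpmp5 by 4.91 and Dcpp1 by 3.16, both called without WT1 too. No gene of any of the 27 lists was called between MT and KO tumors or between MT and WT tumors, with or without WT1.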

How the data were processed

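Total RNA from frozen sections of 12 tumors was hybridised to Affymetrix mouse genome arrays, 1 per tumor. The deposited table holds log2 values per probe set that the authors made by RMA per their methods, and the submitters' processing notes name RMA and MAS5 without versions. RMA shares its background, quantile and probe models across arrays, so a tumor that stands apart also shapes the other columns a little. Values ran from 3.06 to 14.17, and intensities before RMA were not used here, so precision is limited by the number of arrays. Genes were named from the platform annotation given for the table. A probe set counted as a member where its annotation names that gene alone, and 64 control probe sets were left out of the 22626 tested. Trp53 and Hras were not analysed here.

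The groups were taken from the labels. A linear model of genotype over all 12 arrays was fitted to every probe set with limma 3.58.1 (R 4.3.3), with moderated statistics and Benjamini-Hochberg adjustment over all 22626, and calls had an adjusted p under 0.05. Tables and plots were made in Python 3.11.15 with pandas 2.3.3, numpy 2.4.6 and matplotlib 3.10.9. The same fit without WT1 was run for each comparison. The fit was tested on simulated data. A dim probe set is one that is not above the median of all values in at least 4 arrays. The difference between probe sets of one gene is shown where they disagree. Of the 12 pairs of tumors of equal replicate number, 6 had correlated deviations over 0.1 (r from 0.00226 to 0.335), and tumors were not paired by number.

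The members and lists were chosen with earlier results of these data known, and the words searched in the start site windows were chosen after values were seen. Values in every tumor are given for members called in any comparison and for the defining genes of each class, at each gene's brightest probe set, and the second Cd4 probe set was added because the call is there. In the other lists the rule named up to 4 genes each, and the genes named from them here were instead taken as examples after their values were seen, beside those called. Per comparison, 26 other settings and 4 more chosen after seeing the data were run.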

Additional observations from a re-analysis of the deposited data

Results flagged for a closer look

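Within each genotype of 4 tumors, the highest and the lowest tumor of each of the 55 probe sets were compared with the nearest other tumor, as the gap divided by the range of the group, against Dixon's critical value for 4. Of the 165 groups examined, 25 probe sets of 18 genes had WT1 as a high outlier, with ratios from 0.833 to 0.981, and 5 had a low outlier in another genotype. Chance gives about 1 in 20 groups. WT1 was a high outlier of its genotype at 251 or 1.11% of all 22626 probe sets. That WT1 stands apart was known when these genes were chosen, and their levels are correlated, so the ratios describe that tumor and are no separate test of it.

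Among B cell and plasma cell genes the ratio in WT1 was 0.903 for Pou2af1, 0.913 for Cd79a, 0.885 for Jchain, 0.967 for Cr2 and 0.889 for Spib. It was 0.937 and 0.981 for the probe sets of Ms4a1, and 0.960, 0.833, 0.965, 0.860, 0.912, 0.925 and 0.950 for 7 probe sets of Ighm. Among T cell genes it was 0.929 for Cd3g, 0.904 for the dimmer probe set of Zap70, 0.856 for Ccr7, 0.880 for Cd8b1, 0.843 for the dimmer probe set of Il7r and 0.978 for the dimmer probe set of Cd8a. Among the other genes it was 0.925 for Nkg7, 0.976 for Ltb, 0.861 for Cd37, 0.846 for a Coro1a probe set and 0.894 for Cd52. The mean of the 55 probe sets, each centered, gave 0.908 for WT1.

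The low outliers were KO4 for Cd79b (0.882) and for the Ighm probe set 1425247_a_at (0.888), KO3 for the Coro1a probe set 1435288_at (0.899), MT1 for Tnfrsf17 (0.854) and MT4 for the Ighm probe set 1451949_at (0.885).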

How the results depend on the processing

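The 1 probe set called higher in WT than in KO tumors (Cd4, 1427779_a_at) became 3 with arrays centered on their median, 3 with trend and robust moderation, 4 with array weights and 4 at an adjusted p under 0.10. It became 0 with the 8 tumors compared alone, with the methods' t statistic at 5% or 10%, at an adjusted p under 0.01, and with 1 probe set per gene. The last setting keeps the brightest probe set of each gene, so the called Cd4 probe set was not in it. With the replicate block it was 2 (Cd4 and Cd8a), although the numbers were not taken as pairs. Leaving out 1 tumor at a time gave 0 to 7, with 0 without WT3, KO1, KO2 or KO3 and 7 without WT4 (6.01% of all probe sets). For most other settings, here and below, the share called over all probe sets was not counted. The changes in count therefore cannot be read as particular to these genes. Without WT1 the call passed from Cd4 to Cd2, and in alternatives chosen after seeing the data it was 0 without WT1 and without dim probe sets, with the poly-A level as a block, and after quantile normalization. The Cd4 difference was 0.54 to 0.78, with adjusted p from 0.00861 to 0.0927 by limma and 0.126 by the methods' t statistic. The median difference of 0.68 ranged from 0.21 without WT1 to 0.83 on leaving out 1 tumor, and was 0.10 without WT1 and dim probe sets and 0.17 without WT1 after quantile normalization.

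For MT minus WT, 0 lower calls became 4 with array weights, 1 at an adjusted p under 0.10 and 0 to 5 on leaving out 1 tumor (5 without WT4). The median was -0.80 to -0.15 on leaving out 1 tumor, with -0.15 without WT1. The F test gave 1 with centered arrays, 4 with array weights, 2 at an adjusted p under 0.10 and 0 to 5 on leaving out 1 tumor (5 without WT4, 1 without MT4). For MT minus KO, the counts were 0 in every alternative that compared more than 1 MT tumor, and the median was -0.02 to 0.11 over all alternatives. The cause of these changes was not tested. With the poly-A level as a block the sign of the small median of MT minus KO turned, but MT4 alone then stands for the MT tumors. Without WT1 the sign of WT minus KO turned at 6 of the 55 probe sets, of Ccr7, Cd37, Ighm, Ms4a1, Nkg7 and Zap70. The signal of most members is low, which limits what these arrays resolve.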
